A study of Mus musculus with 36 samples.

Results

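The genes described here are 45 genes of the cell division cycle, chosen by name: 6 cyclins and factors of the G1 and S phases, 15 genes of DNA replication, 20 genes of mitosis, and 4 genes that brake the cycle or respond to p53. All 45 were found on the array, with 73 of its 41174 probes, and 26 of them had an expressed probe, meaning a probe whose mean signal over the 36 arrays was more than 2 times its mean local background in both dyes. Liver RNA of 36 adult male mice was measured, 12 in each of 3 groups (strain C57BL/6J in the labels, the substrain C57BL/6JOlaHsd in the methods), and no label names growth or injury of the liver. The baseline group (t=0) was killed after 3 weeks of adaptation to a mild-high-fat diet that gave 30 percent of its energy as fat (3 weeks per the labels, 2 per the methods). The control group (HF) ate this diet for 12 further weeks, and the quercetin group (HF-Q) ate it for 12 weeks with 0.33% (w/w) quercetin, a flavonol of onions and tea, added. All mice therefore shared the diet, and in either comparison with baseline the length of the diet, the age of the mice and the day of killing cannot be told apart. Each array paired cRNA of 1 mouse, in Cy5, with a pool made from all samples, in Cy3, so a value below is the log2 ratio of a mouse over this pool unless another scale is named.

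A cell that leaves rest first makes D-type cyclins, which switch on the kinases that free E2F factors, and E2F factors drive the genes that copy DNA. The minichromosome maintenance proteins Mcm2 to Mcm7 form the ring-shaped helicase that is loaded on DNA in G1 and unwinds it in S phase, while a later wave of genes, among them the B-type cyclins, Cdc20 and the Aurora kinases, runs mitosis. Hepatocytes of an adult liver are mostly at rest and re-enter the cycle after tissue loss, and inhibitors such as Cdkn1a, Cdkn1b and Cdkn2c hold them back.

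Promoter windows show the letters through which these waves are usually read. RefSeq windows of 300 bases (250 before to 50 after the start, build GRCm38.p6) were given for 35 of the 45 genes. Mcm4 was among the genes without a window. The helicase genes Mcm3, Mcm5, Mcm6 and Mcm7 are shown because their brightest probes were called higher in the control group than at baseline and their windows hold E2F-type letters, while the window of Mcm2, which was also called, held none. Capitals mark the E2F-type letters TTTCGCGC, TTTGGCGC or TTTCCCGC on either strand, which overlap each other in Mcm5 and Mcm6. A second annotated window of Mcm7 held none of these letters. The windows shown lie at chr1:20820263-20820562, minus strand for Mcm3, at chr8:75109259-75109558, plus strand for Mcm5, at chr1:128359656-128359955, minus strand for Mcm6 and at chr5:138171834-138172133, minus strand for Mcm7.
Mcm3: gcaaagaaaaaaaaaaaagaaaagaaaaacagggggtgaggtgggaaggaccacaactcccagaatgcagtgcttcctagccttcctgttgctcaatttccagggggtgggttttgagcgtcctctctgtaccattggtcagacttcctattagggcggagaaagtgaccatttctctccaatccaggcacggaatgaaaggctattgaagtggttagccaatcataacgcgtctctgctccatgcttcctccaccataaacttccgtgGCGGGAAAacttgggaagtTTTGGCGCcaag
Mcm5: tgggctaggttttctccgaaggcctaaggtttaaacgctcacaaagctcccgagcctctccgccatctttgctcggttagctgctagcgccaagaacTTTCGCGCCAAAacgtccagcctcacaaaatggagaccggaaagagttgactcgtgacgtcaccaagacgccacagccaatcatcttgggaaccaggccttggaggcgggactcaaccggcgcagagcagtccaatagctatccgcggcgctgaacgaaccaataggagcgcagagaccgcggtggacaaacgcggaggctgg
Mcm6: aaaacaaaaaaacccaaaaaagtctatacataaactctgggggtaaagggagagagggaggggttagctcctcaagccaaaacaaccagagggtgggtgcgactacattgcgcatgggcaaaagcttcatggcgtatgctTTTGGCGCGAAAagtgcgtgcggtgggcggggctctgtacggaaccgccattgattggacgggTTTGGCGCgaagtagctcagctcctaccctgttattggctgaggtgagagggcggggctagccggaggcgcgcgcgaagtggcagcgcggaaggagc
Mcm7: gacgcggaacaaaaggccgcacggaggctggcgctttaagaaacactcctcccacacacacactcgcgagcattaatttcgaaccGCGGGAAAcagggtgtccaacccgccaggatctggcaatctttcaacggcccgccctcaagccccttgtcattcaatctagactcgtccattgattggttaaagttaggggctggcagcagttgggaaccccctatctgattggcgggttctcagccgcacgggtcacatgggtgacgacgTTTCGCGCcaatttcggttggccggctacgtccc
Of all 32851 windows, 0.323% held TTTCGCGC, 0.514% held TTTGGCGC, 1.07% held TTTCCCGC and 1.84% held any of them, against 8 of the 35 genes described here, namely Mcm3, Mcm5, Mcm6, Mcm7, Cdc6, Hells, Uhrf1 and Cdc2a (now Cdk1). Here and below, a gene was counted if any of its windows matched, whereas the percentages count single windows, so the units differ. The mitotic genes Ccnb2 and Cdc20 are shown because they bear the letters of the later wave, with CCAAT and TTTGAA in capitals on either strand. Their windows lie at chr9:70421505-70421804, minus strand for Ccnb2 and at chr4:118437294-118437593, minus strand for Cdc20.
Ccnb2: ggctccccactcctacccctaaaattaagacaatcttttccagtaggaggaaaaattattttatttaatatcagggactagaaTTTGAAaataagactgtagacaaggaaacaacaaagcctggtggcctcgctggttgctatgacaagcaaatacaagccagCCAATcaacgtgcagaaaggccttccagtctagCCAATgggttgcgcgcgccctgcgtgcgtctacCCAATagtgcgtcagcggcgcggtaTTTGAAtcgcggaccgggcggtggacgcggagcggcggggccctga
Cdc20: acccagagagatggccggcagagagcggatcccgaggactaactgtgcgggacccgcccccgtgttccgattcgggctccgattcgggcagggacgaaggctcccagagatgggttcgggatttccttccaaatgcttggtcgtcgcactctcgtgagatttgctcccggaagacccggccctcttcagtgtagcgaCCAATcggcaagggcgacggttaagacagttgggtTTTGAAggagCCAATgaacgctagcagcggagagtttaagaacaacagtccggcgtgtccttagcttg
CCAAT stood in 26 of the 35 genes and in 37.4% of all windows, and TTTGAA in 13 of the 35 genes and in 17.9% of all windows. A match describes these letters in this window and is not a measured binding site.

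Libraries that stood apart bear on what follows. The liver of control replicate 5 held RNA of pancreas genes: the summed Cy5 signal over background of 6 acinar genes was 44940 there, against 54.4 to 133 in the other 35 livers. The array of quercetin replicate 2 was bright throughout, with 96.7% of its spots well above background in Cy5 and at least 56.4% on every array. Values without these livers are given wherever they changed a call. All 7 hepatocyte markers measured were well above background on every array. Because whole liver was used, a lower level may stem from fewer cells of a type or from less RNA per cell, and these cannot be told apart.

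Many of the mitotic genes were close to the background in every group. Of the 20 mitosis genes only 7 had an expressed probe (Aurka, Birc5, Ccnb2, Kif20a, Mki67, Prc1 and Stmn1), against 12 of the 15 replication genes, 4 of the 6 cyclins and G1 factors, and 3 of the 4 brakes. The other 19 genes were Ccna2, Ccne2, Cdc6, Hells, Uhrf1, Aurkb, Bub1, Bub1b, Ccnb1, Cdc20, Cdc2a, Foxm1, Kif11, Nusap1, Plk1, Racgap1, Top2a, Ube2c and Cdkn1a. Their brightest probes had a mean Cy5 signal of 1.31 to 3.01 times the background and a mean Cy3 signal of 1.33 to 1.93 times the background. In 9 of these 19 genes the probe was well above background on no more than 18 of the 36 arrays, and in 3 (Ccna2, Cdc20 and Ube2c) on all 36.

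Cdc2a, the kinase that starts mitosis, gave a median Cy5 signal of 1.48 times the background at baseline, 1.49 in the control group and 1.51 in the quercetin group. Top2a, which untangles DNA before it is divided, gave 1.35, 1.37 and 1.43 times the background. The highest quercetin value, 4.02 for Cdc2a and 11.2 for Top2a, came from the bright array of quercetin replicate 2, against a highest baseline value of 1.68 and 1.96. For these dim probes the log2 ratio is pulled towards 0, and a change below the detection of the array cannot be seen.

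**Figure D1:**
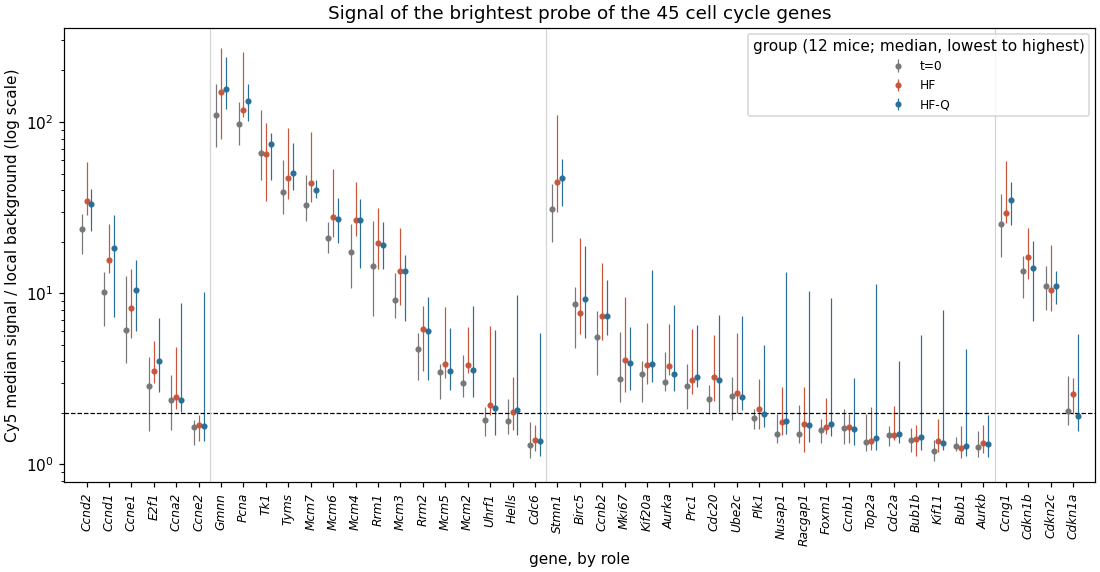
Cy5 median signal over local background (log axis) of the brightest probe of each of the 45 genes, ordered by role; points are group medians of 12 mice and lines run from the lowest to the highest mouse. The dashed line marks 2 times the background, and most mitosis genes lie at or near it, with Top2a at 1.35 to 1.43 times the background.

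Between baseline and 12 weeks of the control diet, the helicase genes and the D-type cyclins were higher. Limma called 9 of the 26 tested genes higher (Mcm2, Mcm3, Mcm4, Mcm5, Mcm6, Mcm7, Rrm1, Ccnd1 and Ccnd2) and 2 lower (Tk1 and Cdkn2c), at an adjusted p under 0.05. Over all 11939 named genes with an expressed probe, 13.8% were called higher and 11.1% lower, and over all 18171 expressed probes 24.5% were called in either direction. By role, 8 of 12 replication genes (7 higher and Tk1 lower), 2 of 4 cyclins and G1 factors, 1 of 3 brakes and 0 of 7 mitosis genes were called. The median log2 change was nevertheless alike in 2 of these roles, at 0.141 for the replication genes and 0.139 for the mitosis genes. The median log2 change was 0.13 over the 26 genes and 0.016 over all named genes, and 23 of the 26 changes were positive.

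In the quercetin group against baseline 7 of the 26 genes were called higher (Mcm4, Mcm6, Pcna, Ccnd1, Ccnd2, Stmn1 and Ccng1) and 1 lower (Cdkn2c). Of all named genes 9.1% were called higher and 8.41% lower, and of all expressed probes 17.1% in either direction. The median log2 change was 0.098 over the 26 genes and 0.0068 over all named genes. Both comparisons use the same 12 baseline arrays, so their lists are not independent of each other.

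**Figure D2:**
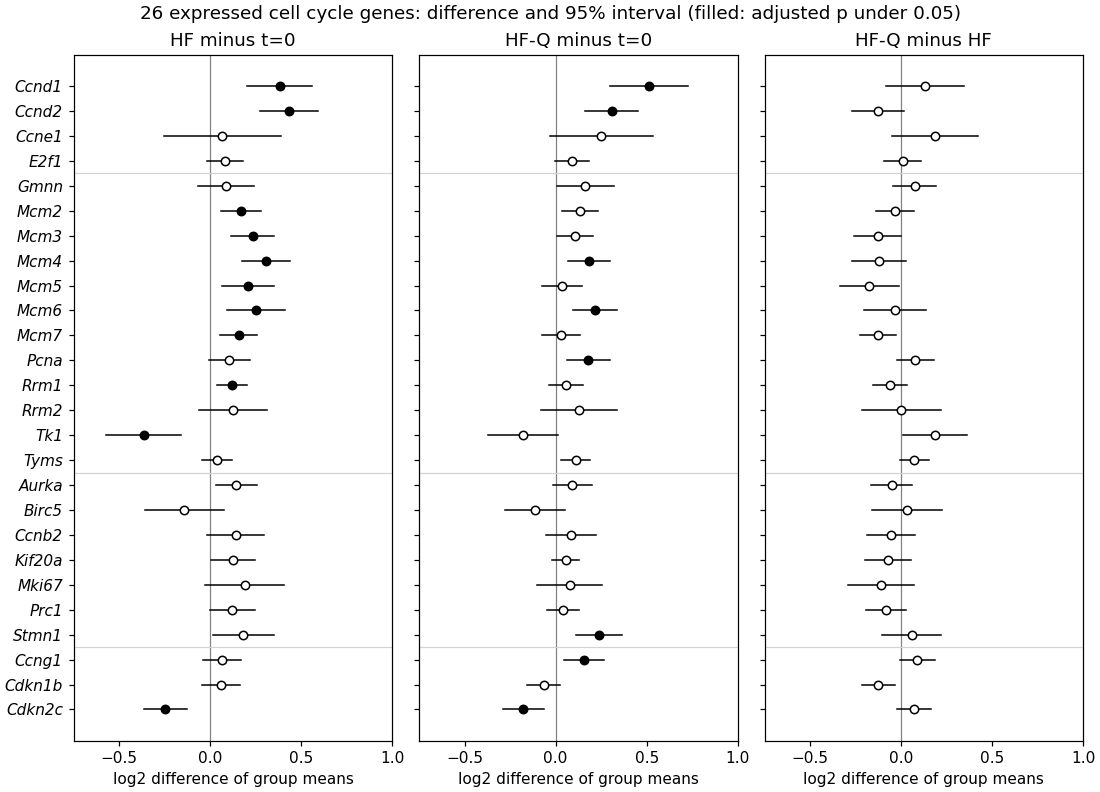
Difference of group means (log2, horizontal axis) with its 95% interval for the 26 expressed genes in the 3 comparisons, ordered by role; filled points had an adjusted p under 0.05. Filled points number 11 for control minus baseline, 8 for quercetin minus baseline and 0 for quercetin minus control.

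All 6 helicase genes were called higher in the control group than at baseline, and the size of the change was modest, at most 1.24-fold. Mcm3 and Mcm4 were called under all 17 alternative ways of processing or fitting. Mcm2 was not called under 5 of them, Mcm5 under 6, Mcm6 under 3 and Mcm7 under 4. The filter on Cy3 alone, among the 17, kept the same 18171 probes and so could not change a call. With the Cy5 channel alone only Mcm3 and Mcm4 of the helicase genes were called. With the authors' processed table Mcm2 and Mcm5 were not called. The mean over the 6 genes in each liver ran from -0.11 (median -0.058) to 0.071 at baseline, from 0.024 (median 0.14) to 0.61 in the control group, and from -0.13 (median 0.071) to 0.23 in the quercetin group. The baseline and control livers thus overlapped only in part, while the quercetin livers overlapped with both and 2 control livers lay above all of them.

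Mcm4 (probe at chr16:15537857-15537916, build mm8) ran from -0.15 (median 0.011) to 0.20 at baseline, from 0.07 (median 0.33) to 0.88 in the control group, and from -0.08 (median 0.24) to 0.49 in the quercetin group. It was higher by 0.31 (SE 0.066) in the control group and by 0.19 (SE 0.058) in the quercetin group than at baseline (limma, adjusted p = 0.0015 and 0.028). Of the 12 control livers 9 lay above the highest baseline liver, and of the quercetin livers 7 did. A dim second probe of Mcm4 (mean Cy5 signal 1.57 times the background) differed by 0.016 between control and baseline.

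Mcm6 (chr1:130159147-130159206) ran from -0.47 (median -0.32) to -0.05 at baseline, from -0.41 (median -0.06) to 0.64 in the control group and from -0.35 (median -0.02) to 0.20 in the quercetin group. The differences from baseline were 0.25 (SE 0.080) and 0.22 (SE 0.060), with adjusted p = 0.023 and 0.014 in limma. The groups overlapped, since 6 control and 7 quercetin livers were above every baseline liver.

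Mcm3 (chr1:20788189-20788248) ran from -0.09 (median 0.08) to 0.24 at baseline, from 0.11 (median 0.22) to 0.80 in the control group and from -0.09 (median 0.19) to 0.35 in the quercetin group. Control minus baseline was 0.23 (SE 0.059, limma adjusted p = 0.0054), and every control liver lay above the baseline median. A second, dimmer Mcm3 probe gave 0.060 (adjusted p = 0.50), so the probes of this gene disagree in size.

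Mcm5 (chr8:78023523-78023583) ran in the control group from 0.02 (median 0.18) to 0.80, against -0.14 (median 0.038) to 0.17 at baseline and -0.12 (median -0.0073) to 0.40 in the quercetin group. The difference between control and baseline was 0.21 (SE 0.072, limma adjusted p = 0.034). The call was lost without control replicate 5, the liver with pancreas RNA (0.17, adjusted p = 0.056), and without baseline replicate 1, 10 or 12, and over all livers left out one at a time the adjusted p rose to 0.058 at most.

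Mcm2 (chr6:88849266-88849325) ran from -0.35 (median -0.12) to 0.08 at baseline and from -0.13 (median -0.011) to 0.36 in the control group, a difference of 0.17 (SE 0.054, limma adjusted p = 0.025). Mcm7 (chr5:138394485-138394544) ran from -0.22 (median -0.0018) to 0.26 at baseline and from -0.0093 (median 0.15) to 0.34 in the control group, a difference of 0.16 (SE 0.051, adjusted p = 0.026). These were the smallest helicase changes, and 11 of 12 control livers were above the baseline median in either gene. The probes of Mcm2 and Mcm5 passed the limit of 2 times the background narrowly in Cy3. Their mean signals were 2.22 and 2.09 times the background in Cy3, and 3.69 and 3.83 times in Cy5. The quercetin livers ran from -0.18 (median -0.00097) to 0.20 for Mcm2 and from -0.23 (median 0.030) to 0.21 for Mcm7. In the quercetin group the difference from baseline was 0.14 for Mcm2 (adjusted p = 0.058), 0.11 for Mcm3 (0.14), 0.035 for Mcm5 (0.70) and 0.029 for Mcm7 (0.76) in the same test.

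**Figure D3:**
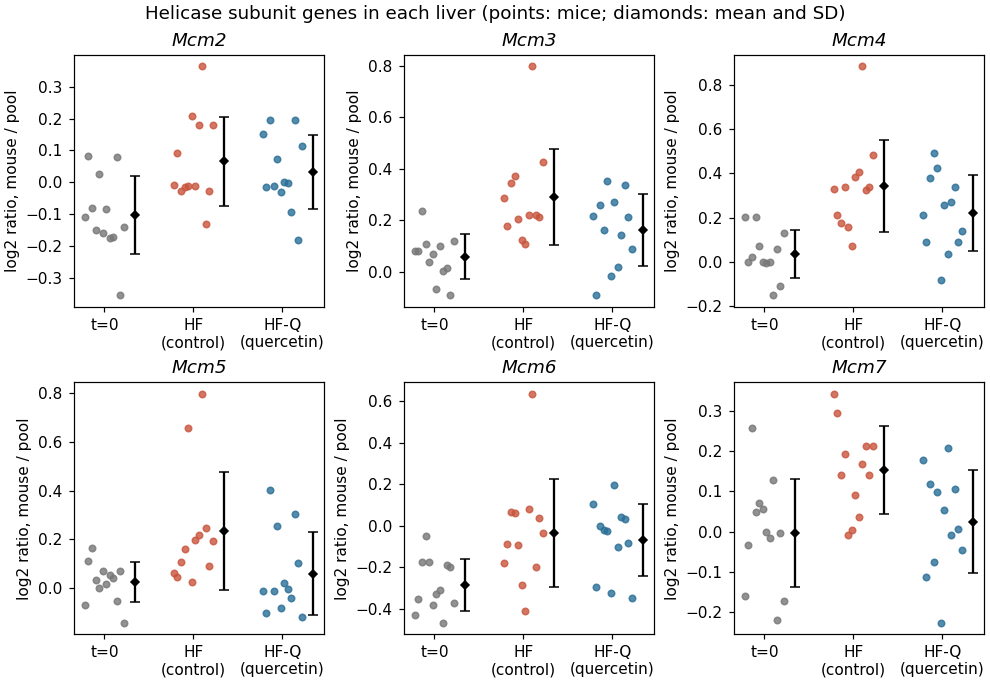
Log2 ratio of mouse over pool (vertical axis) of the 6 helicase genes in each liver by group; points are mice and diamonds with bars are the mean and SD of 12 mice. Control means lie above baseline means in every panel, and 1 control liver stands highest for Mcm2 to Mcm6, at 0.88 for Mcm4.

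The same comparison can be made within a slide, because each of the 9 slides of 4 arrays held all 3 groups. With 4 arrays for 3 groups, a difference within a slide rests on few mice. For Mcm3 and Mcm4 the control livers were higher than the baseline livers on 9 of 9 slides, with a median difference of 0.20 and 0.35. Mcm2 and Mcm5 were higher on 8 of 9 slides, and Mcm6 and Mcm7 on 7 of 9. With the slide as a block, Mcm2, Mcm3 and Mcm4 were still called, whereas Mcm5 (0.20, adjusted p = 0.079), Mcm6 (0.24, 0.073) and Mcm7 (0.14, 0.079) missed the threshold in limma.

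Enzymes that supply DNA building blocks gave values of both signs. Rrm1, the large subunit of ribonucleotide reductase (chr7:102342530-102342590), ran from -0.20 (median -0.032) to 0.10 at baseline and from -0.0055 (median 0.051) to 0.31 in the control group, and from -0.20 (median 0.056) to 0.24 in the quercetin group. The difference between control and baseline was small, 0.12 (SE 0.041, limma adjusted p = 0.036), and the call was lost without any of baseline replicates 2, 5, 9, 10, 11 and 12 or control replicates 4, 8, 9 and 12 (adjusted p up to 0.064). Quercetin minus baseline was 0.057 for Rrm1 (adjusted p = 0.42). Rrm2, the small subunit whose level normally rises in S phase, differed by 0.13 in either 12-week group (adjusted p = 0.33 for control and 0.43 for quercetin). Tyms, which makes thymidylate, ran from -0.27 (median -0.078) to 0.073 at baseline, from -0.18 (median -0.085) to 0.12 in the control group and from -0.12 (median 0.0029) to 0.15 in the quercetin group. It differed by 0.037 (95% interval -0.04 to 0.12) and 0.11 (0.03 to 0.19), with limma adjusted p = 0.53 and 0.063.

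Tk1, the thymidine kinase of dividing cells (chr11:117631881-117631940), went the other way. It ran from -0.35 (median 0.14) to 0.52 at baseline, from -0.76 (median -0.29) to 0.15 in the control group, and from -0.56 (median -0.040) to 0.11 in the quercetin group. Tk1 fell by 0.37 (SE 0.10, limma adjusted p = 0.011) in the control group, where 5 livers lay under every baseline liver. Within slides the sign was less even: the control livers were lower on 6 of 9 slides and higher on 3. In the quercetin group the value against baseline was -0.18 (adjusted p = 0.20), and all 12 livers were under the baseline median.

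Pcna, the clamp that holds DNA polymerase on its template (chr2:131941125-131941262), ran from -0.05 (median 0.13) to 0.39 at baseline, from 0.09 (median 0.24) to 0.53 in the control group and from 0.15 (median 0.35) to 0.52 in the quercetin group. Against baseline, the difference was 0.10 (SE 0.056, limma adjusted p = 0.18) in the control group and 0.18 (SE 0.059, adjusted p = 0.036) in the quercetin group. The quercetin call for Pcna was lost without any of 12 livers (baseline replicates 1, 2, 4, 5, 6 and 9, quercetin replicates 1, 6, 7, 8, 9 and 11), with adjusted p up to 0.0645. Gmnn, which blocks reloading of the helicase, ran from -0.415 (median 0.027) to 0.26 at baseline, from -0.15 (median 0.067) to 0.25 in the control group and from -0.13 (median 0.15) to 0.47 in the quercetin group. It differed from baseline by 0.088 in control and 0.16 in quercetin livers (adjusted p = 0.42 and 0.15).

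The D-type cyclins, which respond to growth signals in G1, had the largest differences from baseline among the 26 genes. Ccnd1 (chr7:144739658-144739717) ran from -0.77 (median -0.33) to 0.03 at baseline, from -0.27 (median -0.01) to 0.66 in the control group and from -0.28 (median 0.13) to 0.79 in the quercetin group. It was 1.30-fold higher in the control group (0.38, SE 0.089) and 1.43-fold higher in the quercetin group (0.51, SE 0.11) than at baseline, with adjusted p = 0.0030 and 0.0017 in limma. All 24 livers of the 12-week groups were above the baseline median, and 5 control and 8 quercetin livers were above every baseline liver.

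Ccnd2 (chr6:127095295-127095354) ran from -0.63 (median -0.16) to 0.10 at baseline, from 0.04 (median 0.18) to 0.80 in the control group and from -0.24 (median 0.10) to 0.36 in the quercetin group. The highest liver, at 0.80, was control replicate 5. The differences from baseline were 0.43 (SE 0.080) and 0.31 (SE 0.073), with limma adjusted p = 0.00035 and 0.0052, and without control replicate 5 the first was 0.38 (adjusted p = 0.00022). The 2 other expressed probes of Ccnd2 gave 0.38 and 0.37 for control minus baseline and 0.25 and 0.29 for quercetin minus baseline. Control livers were higher than baseline livers on 9 of 9 slides for both cyclins.

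Ccne1, the cyclin of S phase entry, varied widely between mice, from -0.68 (median -0.25) to 0.66 at baseline, from -0.62 (median -0.080) to 0.62 in the control group and from -0.27 (median 0.090) to 0.62 in the quercetin group. It differed by 0.065 (95% interval -0.26 to 0.39) in the control group and 0.25 (-0.03 to 0.53) in the quercetin group, with limma adjusted p = 0.79 and 0.22. E2f1 itself differed by 0.082 and 0.090 (adjusted p = 0.22 and 0.19). Ccna2 and Ccne2 had no expressed probe.

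**Figure D4:**
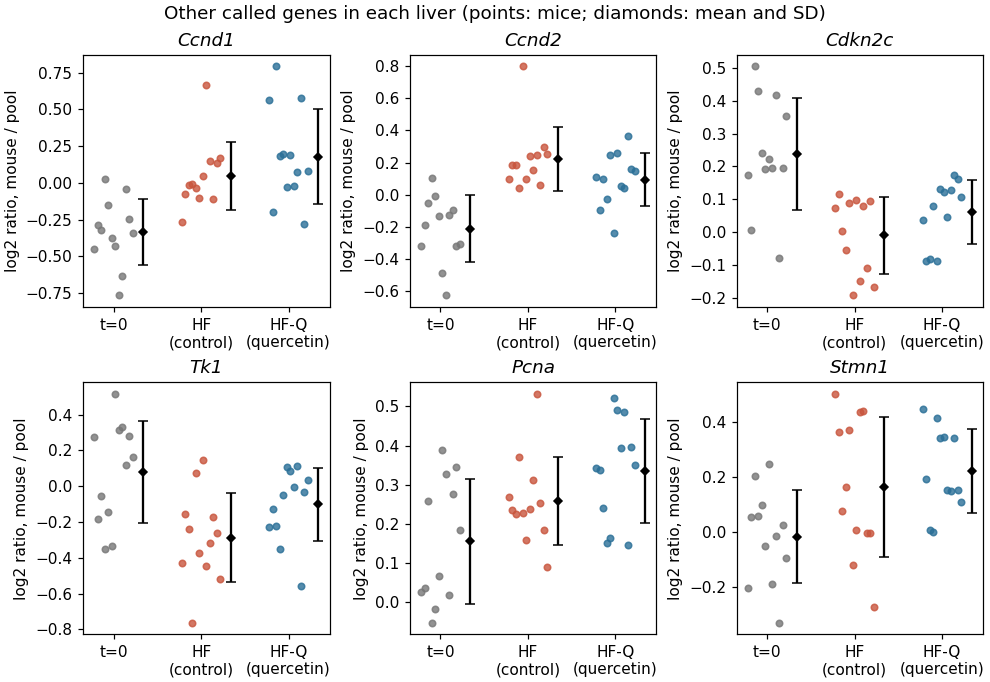
Log2 ratio of mouse over pool (vertical axis) of Ccnd1, Ccnd2, Cdkn2c, Tk1, Pcna and Stmn1 in each liver by group; points are mice and diamonds with bars are the mean and SD of 12 mice. The cyclins lie higher and Cdkn2c lower after 12 weeks in both groups, with overlap between groups in every panel.

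Among the brakes, Cdkn2c (p18, an inhibitor of the kinases that D-type cyclins activate, chr4:109159106-109159165) was lower after 12 weeks in both groups. It ran from -0.08 (median 0.21) to 0.51 at baseline, from -0.19 (median 0.038) to 0.12 in the control group and from -0.09 (median 0.093) to 0.175 in the quercetin group. The control value fell by 0.25 (SE 0.059, limma adjusted p = 0.0036) and the quercetin value fell by 0.18 (SE 0.056, adjusted p = 0.030), and every liver of both groups was under the baseline median. Control livers were lower on 9 of 9 slides, and so were quercetin livers. A second Cdkn2c probe gave -0.19 (adjusted p = 0.033) and -0.13 (0.16). The quercetin call was lost without the bright array of quercetin replicate 2 (-0.16, adjusted p = 0.051), and also without baseline replicate 3 or quercetin replicate 3 or 5.

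Cdkn1b (p27), which holds resting cells out of S phase, gave different values by probe. Its brightest probe (chr6:134890890-134890949) ran from -0.090 (median 0.12) to 0.33 at baseline, from -0.00082 (median 0.19) to 0.47 in the control group and from -0.048 (median 0.043) to 0.23 in the quercetin group. It differed by 0.059 between control and baseline (limma adjusted p = 0.42), while another expressed probe (chr6:134886778-134886836) gave -0.24 (adjusted p = 0.0038). In the quercetin group the same probes gave -0.066 (adjusted p = 0.33) and -0.074 (0.41) against baseline. Ccng1, a p53 target, ran from -0.17 (median 0.0043) to 0.29 at baseline, from -0.090 (median 0.087) to 0.26 in the control group and from 0.052 (median 0.13) to 0.40 in the quercetin group. It was called in the quercetin group only narrowly (0.16, SE 0.055, adjusted p = 0.04997), and its second expressed probe gave -0.14 (0.071). Most alternatives missed the call, among them the methods' t-test, the slide as a block and the authors' processed table. That call was lost without any 1 of 16 livers (baseline replicates 2, 3, 4, 5, 6, 9, 10 and 12, quercetin replicates 3, 4, 5, 6, 8, 9, 10 and 12), with adjusted p up to 0.082. Cdkn1a (p21), the p53-driven inhibitor, was too dim for the test, with median Cy5 signals of 2.06, 2.58 and 1.93 times the background in the baseline, control and quercetin livers.

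Of the mitosis genes only Stmn1, which takes microtubules apart, was called, and only in the quercetin group. Stmn1 (chr4:133745683-133745742) ran from -0.33 to 0.24 at baseline, from -0.28 (median 0.12) to 0.50 in the control group and from -0.0013 (median 0.17) to 0.45 in the quercetin group. It differed from baseline by 0.18 (SE 0.084, limma adjusted p = 0.12) and 0.24 (SE 0.064, adjusted p = 0.012). A dimmer expressed probe gave 0.076 in either group (adjusted p = 0.32 and 0.27). The gene is expressed outside mitosis as well, so it is not a marker of division alone.

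The other 6 expressed mitosis genes were not called in any comparison. Mki67, the proliferation antigen, ran from -0.45 (median -0.08) to 0.59 at baseline, from -0.19 (median 0.07) to 0.95 in the control group and from -0.26 (median -0.01) to 0.29 in the quercetin group. Control minus baseline was 0.19 (95% interval -0.03 to 0.41, limma adjusted p = 0.21). Aurka, a spindle kinase, differed by 0.14 (adjusted p = 0.066), Ccnb2 by 0.14 (0.20), Kif20a by 0.13 (0.13), Prc1 by 0.12 (0.16) and Birc5 by -0.14 (0.35). Within the 9 slides, control livers were higher than baseline livers for Aurka on 9, for Ccnb2 and Prc1 on 6, for Kif20a on 5 and for Birc5 on 3. Birc5, which guards against cell death in mitosis, ran from -0.34 (median 0.22) to 0.46 at baseline, from -0.24 (median -0.075) to 0.83 in the control group and from -0.37 (median 0.067) to 0.25 in the quercetin group, where the value against baseline was -0.11 (adjusted p = 0.37). Of the 7 mitosis genes 6 had positive values, with a median of 0.14, and every liver of the control group was above the baseline median for Ccnb2. The mean Cy5 signal of these 6 probes was 3.36 (Prc1) to 9.29 (Birc5) times the background.

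Without the filter on dim probes, Cdc20, which activates the complex that ends mitosis, and Nusap1, a spindle protein, were called between control and baseline. Cdc20 ran from -0.23 (median -0.06) to 0.16 at baseline, from -0.02 (median 0.16) to 0.51 in the control group and from -0.07 (median 0.09) to 0.27 in the quercetin group. Its difference was 0.23 (adjusted p = 0.0060 over all 41174 probes in limma), with all 12 control livers above the baseline median. Nusap1 differed by 0.14 (adjusted p = 0.023), from a probe that was well above background on only 19 of 36 arrays. No other gene of the 19 was called without the filter in any comparison.

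A single liver, control replicate 9, carried the highest value of all 36 mice for 12 of the 26 expressed genes. These were Mcm2, Mcm3, Mcm4, Mcm5, Mcm6, Pcna, Aurka, Birc5, Ccnb2, Kif20a, Mki67 and Prc1, thus both replication and mitosis genes, and also 8 of the 19 dim genes. Over all named genes the same liver was highest in 4.09%, and no other mouse was highest for more than 2 of the 26. In this liver the mean over the helicase genes was 0.61, against 0.24 in the next control liver. This mouse was singled out after its values were seen.

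The helicase calls did not rest on that liver. Without control replicate 9, control minus baseline was 0.26 for Mcm4 (limma adjusted p = 0.00066), 0.19 for Mcm3 (0.0026), 0.19 for Mcm6 (0.021), 0.16 for Mcm5 (0.042), 0.15 for Mcm7 (0.035) and 0.14 for Mcm2 (0.042). The value of Mki67 was 0.11 without it (adjusted p = 0.37), and that of Birc5 was -0.22 (0.078). Of the 11 calls, only Rrm1 was lost (0.11, adjusted p = 0.053).

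Within groups, helicase genes varied with each other from mouse to mouse, and mitosis genes with each other, whereas the 26 genes as a whole did so weakly. After each group's mean was removed, the 15 pairs of helicase genes had a median correlation over 36 mice of 0.43 (0.011 to 0.74), and the 21 pairs of expressed mitosis genes one of 0.41 (0.12 to 0.76). Leaving out control replicates 5 and 9 and quercetin replicate 2 gave 0.32 and 0.27. Over the 66 pairs of replication genes the median was 0.13 (-0.42 to 0.74, and 0.070 without those 3 mice), and over the 325 pairs of all 26 genes it was 0.13 (-0.57 to 0.76, and 0.044 without them). The helicase and mitosis genes had median correlations of 0.027 and -0.0051 with all named genes. These values are descriptions, since genes of an array share its labelling and scan.

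**Figure D5:**
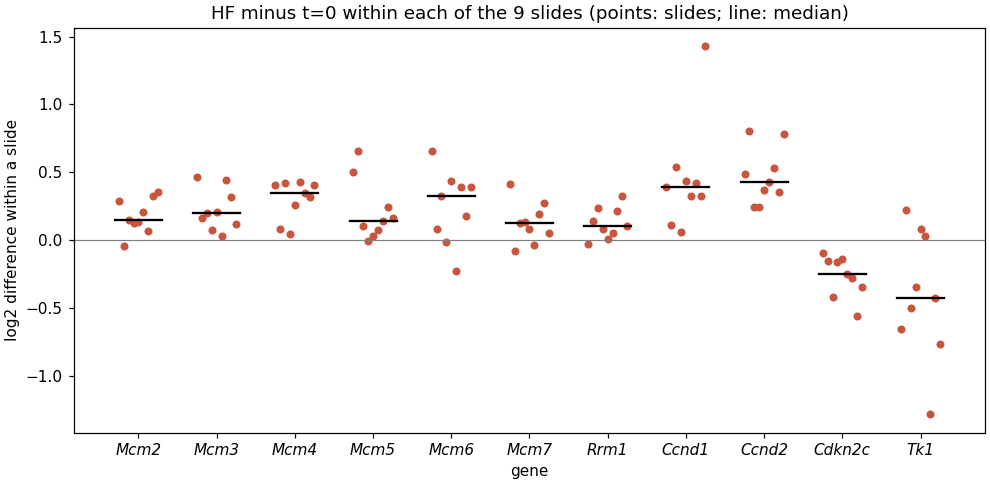
Difference between control and baseline livers within each of the 9 slides (log2, vertical axis) for the 11 genes called in that comparison; points are slides and lines are medians. Mcm3, Mcm4, Ccnd1 and Ccnd2 lie above 0 and Cdkn2c below 0 on all 9 slides, while Tk1 lies below 0 on 6.

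Quercetin against control was the question of the study, and no gene of the 26 was called in that comparison. Limma called 3.45% of all expressed probes (of named genes, 2.09% as higher with quercetin and 1.23% as lower), and the methods' t-test with Benjamini-Hochberg adjustment also called 0 of the 26. At an unadjusted p under 0.05, 4 genes passed (Mcm5, Mcm7, Tk1 and Cdkn1b), against 17% of all expressed probes. The median log2 change of the 26 genes was -0.034, with -0.011 over all named genes.

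The 6 helicase values between quercetin and control ran from -0.17 to -0.033, all negative, and none was called. Without control replicate 9 they ran from -0.13 to 0.026, Mcm6 being positive, and with loess and scale normalization 3 of the 6 were positive (up to 0.18), so their sign was not stable. One was also positive with array weights and 2 with Arntl as a covariate. Mcm7 showed -0.13 (95% interval -0.23 to -0.03, limma adjusted p = 0.17), with 2 of 12 quercetin livers above the control median and lower values on 8 of 9 slides. Mcm5 showed -0.17 (-0.34 to -0.01, adjusted p = 0.27), and 8 quercetin livers lay under every control liver. Mcm4 (-0.12, -0.27 to 0.03) and Mcm3 (-0.13, -0.26 to 0.00) had intervals that reach 0. A missed threshold does not show that the groups were alike.

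Tk1 was 0.19 higher in the quercetin than in the control group (95% interval 0.01 to 0.36, limma adjusted p = 0.28), Ccnd1 0.13 (-0.08 to 0.35, adjusted p = 0.58) and Ccnd2 -0.13 (-0.27 to 0.02, 0.38). Cdkn1b gave -0.13 (-0.22 to -0.04, 0.13) by its brightest probe and 0.17 (0.17) by the other. The dim Cdkn1a probe gave -0.20 (adjusted p = 0.089 without the filter), with 1 of 12 quercetin livers above the control median.

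Genes of other cells and of the circadian clock differed between these groups and are given beside the cell cycle values. Of 4 tested cholangiocyte markers (bile duct cells, which can divide), 3 were higher in the control group than at baseline: Krt19 by 0.41, Krt7 by 0.27 and Sox9 by 0.55 (limma adjusted p = 0.013, 0.014 and 0.0013). Between quercetin and baseline 0 of the 4 were called (median change 0.054). Between quercetin and control 1 was called lower (median change -0.30). The summed Cy5 signal over background of the 5 listed markers ran from 185 (median 252) to 409 at baseline, from 227 (median 408) to 603 in the control group and from 219 (median 305) to 383 in the quercetin group, and at least 4 of the 5 were well above background on all arrays of each group. Of 2 tested erythroid markers, Hba-a1, a globin of red cells, was higher by 0.85 and 1.14 in the control and quercetin groups (adjusted p = 0.0010 and 9.7e-07), while Alas2, the heme synthesis enzyme of red cell precursors, gave -0.19 and -0.26 (0.080 and 0.0090). The summed level of 5 erythroid markers ran from 448 to 628 at baseline, from 684 to 2160 in the control group and from 806 to 1635 in the quercetin group. Of 7 tested hepatocyte markers, 3 were lower in the control group than at baseline, namely Cps1 (-0.38), Ttr (-0.25) and Tdo2 (-0.27), and 2 in the quercetin group, namely Cps1 (-0.49) and Ttr (-0.33). Of 6 tested sinusoidal endothelial markers 1 was lower in the control group than at baseline, and 1 was higher with quercetin than in control. Of 6 stellate cell and 4 lymphocyte markers 0 were called in any comparison. Of 8 tested Kupffer cell and macrophage markers 0 were called, while their summed level had a median of 492 at baseline, 734 in the control group and 828 in the quercetin group. The summed levels of these lists were not normalized between arrays. In the same order of groups, the median of the mean log2 ratio was -0.37, -0.012 and 0.043 for these markers. It was -0.16, 0.18 and -0.078 for cholangiocyte and -0.19, -0.085 and 0.044 for erythroid markers. For 6 sinusoidal endothelial markers the summed level rose (415, 476 and 505) while this ratio did not (0.10, 0.034 and 0.055). Of all named genes, 13.8% were called higher and 11.1% lower in the control group than at baseline, and 9.1% and 8.41% in the quercetin group. The part of these cells in the cell cycle values was not tested.

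Of 9 tested clock genes 6 were called between quercetin and control, for example Arntl at -0.76 and Dbp at 0.90 (limma adjusted p = 0.0036 and 0.0052). Between control and baseline, 0 of the 9 clock genes were called higher and 1 lower, with changes from -0.63 to 0.53. A covariate that itself differs between groups also takes up part of their difference. The part of the clock in the cell cycle values was therefore not tested by the fit that follows. With the Arntl ratio of each liver as a covariate, Mcm3, Mcm4, Ccnd1, Ccnd2 and Cdkn2c remained called between control and baseline. Mcm2 (0.14, adjusted p = 0.11), Mcm5 (0.22, 0.069), Mcm6 (0.24, 0.077), Mcm7 (0.093, 0.22), Rrm1 (0.086, 0.20) and Tk1 (-0.19, 0.15) were not, while Gmnn (0.24, 0.0047) and Rrm2 were.

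Other genes of the same pathways were taken from lists chosen by function. Over all named genes, 13.8% were called higher and 11.1% lower for control minus baseline. The shares were 9.1% and 8.41% for quercetin minus baseline, and 2.09% and 1.23% for quercetin minus control. A count near these shares is not a result about its list. Of 33 tested replication factors outside the 45 genes (of 45 listed), 8 were called higher and 2 lower in the control group than at baseline, 1 and 2 in the quercetin group, and 1 and 0 between quercetin and control. Of 23 tested mitotic factors (of 57 listed) the counts were 7 and 0, 2 and 0, and 0 and 1. Of 16 tested E2F, RB, MYB and MYC factors they were 5 and 2, 2 and 0, and 0 and 1, of 17 other cyclins, kinases and inhibitors 3 and 3, 1 and 1, and 0 and 1, and of 18 genes of p53 and its targets 5 and 0, 3 and 0, and 0 and 1. The medians of these lists for control minus baseline were 0.085, 0.11, 0.052, -0.069 and 0.17.

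The largest called differences in these lists follow. E2f2, an activating E2F factor, was higher than at baseline by 0.76 (SE 0.090, limma adjusted p = 1.7e-06) in the control group and by 0.42 (0.0048) in the quercetin group. Tubb5, a beta tubulin, was higher by 0.59 (0.00041) and Cks1b, a partner of cyclin-dependent kinases, by 0.49 (0.0076) in the control group, where 11 of 12 livers were above the baseline median for either gene. Plk2, a p53 target, was higher by 0.57 (7.3e-05) and 0.30 (0.0058) in the control and quercetin groups, and Sesn2, another stress-responsive gene, by 0.42 in both (0.010 and 0.0061). Spc25, a kinetochore protein, was higher by 0.36 in the quercetin group (adjusted p = 0.013), with 0.25 (0.15) in the control group.

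Mcm10, which helps the helicase to start, fell by 0.51 (SE 0.12, limma adjusted p = 0.0037) between baseline and the control group and was 0.37 higher in the quercetin than in the control group (adjusted p = 0.040), with all 12 quercetin livers above the control median. Its difference from baseline had the opposite sign to that of the 6 ring subunits. Mycn, a growth-promoting transcription factor, was 0.48 higher in the control group than at baseline (adjusted p = 0.018) and fell by 0.57 from control to quercetin (0.013). Ddit4l was 0.39 higher in the control group (0.0022) and fell by 0.30 from control to quercetin (0.045), and Tob1, an antiproliferative factor, fell by 0.40 in the control group (0.0015).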

How the data were processed

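Liver RNA of 36 mice was hybridized on 36 two-colour arrays. The scanner files deposited by the authors hold, per spot, the median intensity of both dyes and of the local background, as read by Agilent Feature Extraction (version 10.5.1.1 in the submitters' processing notes). A processed table that the authors deposited, on a log2 scale and with 23256 spots, was used as an alternative. Its scale was taken from its match with log2 Cy5 (correlation at least 0.98 per array), its Cy5 signal having been normalized against Cy3 per the methods; whether genes were centred is not given in the sources used here.

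Background was corrected by normexp (offset 50), control spots (1639) and outlier spots were given no weight, log2 ratios of Cy5 over Cy3 were normalized by loess within arrays, and spots of a probe were averaged. Dim probes were filtered as stated in the report, on means over all 36 arrays. Pairs of groups were compared with limma 3.58.1 in R 4.3.3 (two-sided, Benjamini-Hochberg over 18171 expressed probes, calls at adjusted p under 0.05). A gene was represented by its brightest expressed probe. Symbols came from accessions in the files, and probe positions are mm8; whether a probe lies in coding sequence or an untranslated end was not analysed here. Values by group were given for every gene called by its brightest probe in any comparison and for the 5 uncalled genes with the brightest probes; of other lists, for the 10 largest called changes. The 45 genes and all lists were chosen with earlier results of these data known. Labels name separate mice. The number of arrays limits precision. Fits were tested on simulated data.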

Additional observations from a re-analysis of the deposited data

How the results depend on the processing

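Between control and baseline the 26 genes gave 11 calls. Alternatives gave 6 with the Cy5 channel alone (2838 probes called over all, against 4460) and 7 with Arntl as a covariate. Median centring in place of loess moved the median of all expressed probes to 0.12 and that of the 26 genes to 0.26, and 88.2% of its calls were higher (50.4% as reported); Tk1 and Cdkn2c were then not called (-0.21 and -0.16). Ccnd1, Ccnd2, Mcm3 and Mcm4 were called under all 17 alternatives, of which the filter on Cy3 alone left the tested probes unchanged. No called gene changed sign; the uncalled Birc5 (-0.14) was 0.0097 with Arntl as a covariate. Between quercetin and baseline the 8 calls became 5 with Feature Extraction's processed signals, 1 with median centring (342 probes called against 3114), 2 with loess and scale normalization (559), 1 with the Cy5 channel alone (1218) and 5 with the authors' processed table; the higher share of called probes was 34.5%, 64.3%, 52.4%, 37.8% and 55.5%, against 49.4%. Between quercetin and control no alternative called any of the 26 genes; 627 called probes became 68, 82, 212, 264, 0 and 1015 with median centring, loess and scale, Cy5 alone, the slide as a block, Arntl and array weights. The median of the 26 genes moved from -0.034 to -0.12 with median centring and was 0.028 with loess and scale, and 25%, 62.2%, 58.5%, 68.9% and 63.8% of called probes were higher where any was called (53.5% with processed signals; 66.7% as reported).

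Leaving out each liver in turn gave 9 to 12, 6 to 9 and 0 to 0 calls among the 26 genes, and 3863 to 5180, 2502 to 3789 and 451 to 784 probes, in the order above. This choice, and leaving out control replicate 5 and quercetin replicate 2 together (10, 7 and 0 calls), were made after seeing the data. Replicate numbers did not pair the mice (median residual correlation 0.051, 0.011 and -0.035 over 12 pairs); with the replicate block 8, 7 and 0 genes were called. Dim probes limit what can be seen of mitosis genes.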
